A study of Homo sapiens with 12 samples.

Results

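The genes described here encode the TSC complex (TSC1, TSC2), the small GTPase RHEB, the kinase MTOR, the 4 Rag GTPases (RRAGA, RRAGB, RRAGC, RRAGD) and a pair of mTORC1 substrates (EIF4EBP1, RPS6KB1). They were taken as every probe set whose platform annotation gives exactly 1 gene symbol that is on this list of 10 genes, which yielded 18 of the 22215 probe sets analysed, for 10 of the 11963 genes named in this way. TSC2 was on the list because 1 of its probe sets was the single one called between Aza and vehicle in an earlier fit of these arrays. Its Aza values, and all other member values in Aza against vehicle or AGA, are therefore descriptions without a test. RNA came from HMT-3522 S1 cells, a long-established line of human breast epithelium without tumour behaviour that forms hollow, polarized spheres (acini) in laminin-rich gel. There were 3 groups of 4 arrays. The vehicle group was labelled polarized. The AGA group received 10 µM 18-alpha-glycyrrhetinic acid, a blocker of gap junctions, and the Aza group 10 µM 5-aza-2'-deoxycytidine, an inhibitor of DNA methylation, each for 10 days from plating. Both treated groups were labelled not polarized. All groups were of 1 cell line at passages 55 to 60, grown for 10 days with 5% Matrigel, the last 48 hours without EGF, in medium containing insulin.

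mTORC1 is a kinase complex at the lysosome surface that promotes protein synthesis and restrains autophagy. Amino acids recruit it there through heterodimers of RagA or RagB with RagC or RagD, and growth factors such as insulin switch it on through GTP-bound RHEB. The TSC complex, in which TSC2 is the GTPase-activating subunit and TSC1 its stabilising partner, turns RHEB off. Most of this control acts on the proteins, by phosphorylation, nucleotide state and location, and an array of transcripts does not measure it.

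The lysosomal transcription factors TFEB, TFE3 and MITF bind the letters CACGTG, and Aza inhibits DNA methylation, which falls mainly on CG pairs. The promoters of member genes were therefore searched for CACGTG and for CG pairs. The 250 bases before the gene start were taken from RefSeq on GRCh38.p14. A window was found for 7 of the 10 genes, and the 3 that held CACGTG are shown, 5′ to 3′ on the gene's strand, with those letters in capitals. CACGTG reads the same on both strands.
TSC2, chr16:2047735-2047984, + strand: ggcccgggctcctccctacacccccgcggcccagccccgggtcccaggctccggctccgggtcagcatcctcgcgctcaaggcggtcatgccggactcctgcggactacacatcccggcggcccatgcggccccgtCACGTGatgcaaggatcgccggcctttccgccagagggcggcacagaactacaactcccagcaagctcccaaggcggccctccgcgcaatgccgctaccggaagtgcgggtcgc
RRAGB, chrX:55717499-55717748, + strand: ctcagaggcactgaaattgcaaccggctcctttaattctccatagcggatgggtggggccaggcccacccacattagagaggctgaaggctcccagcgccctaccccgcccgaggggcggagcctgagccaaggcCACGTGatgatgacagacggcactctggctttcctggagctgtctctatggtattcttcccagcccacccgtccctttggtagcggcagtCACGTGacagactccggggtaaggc
RRAGC, chr1:38859773-38860022, - strand: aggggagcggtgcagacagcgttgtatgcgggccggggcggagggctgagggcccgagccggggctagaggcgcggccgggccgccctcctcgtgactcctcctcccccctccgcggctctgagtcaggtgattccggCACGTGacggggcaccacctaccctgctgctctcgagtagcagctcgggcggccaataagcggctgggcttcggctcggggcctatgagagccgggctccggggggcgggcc
The windows of TSC2 and RRAGC shown held the motif 1 time each and that of RRAGB 2 times. A second TSC2 window, chr16:2047952-2048201, which overlaps the one shown, held it 0 times. Of all 35116 windows of this length, 6.34% held it at least 1 time and 0.535% at least 2 times. The TSC2 windows held 27 and 37 CG pairs, that of RRAGC 26 and that of RRAGB 12, against a median of 11 over all windows. Those of RHEB, TSC1, RPS6KB1 and MTOR, without the motif, held 24, 22, 16 and 11. As many as in the TSC2 windows were held by 17.7% and 4% of all windows. A match is a description of the letters and shows neither binding nor methylation, which were not measured. The arrays' files name no genome build.

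Levels are log2 intensities after quantile normalization, with 0 as the floor. The median probe set had a mean of 4.76, and 11 of the 18 member probe sets lay above it. The deposited intensities had medians between 23.3 and 35.9 on the 12 arrays, whose small number limits precision. The 3 arrays numbered 4 stood apart from the other 9 along the first principal component of the brighter probe sets, which held 43.4% of their variance. Of 10 mammary epithelial markers, 8 were measured and 6 lay above the median, with KRT5 at 11.94 to 12.79 and KRT14 at 11.17 to 12.92. KRT19 was at 0 on every array and EPCAM was at 0 to 3.45. Of 5 fibroblast markers 2 lay above the median, COL1A1 at 6.48 to 7.73 and DCN at 3.67 to 6.58. DCN had means of 4.63 in vehicle, 4.47 in AGA and 5.94 in Aza. Above the median lay 0 of 2 measured leukocyte, 0 of 3 endothelial and 1 of 3 adipocyte markers. Summed levels of the 5 fibroblast markers were 18.3 to 22.9 in vehicle, 19.2 to 22.0 in AGA and 20.2 to 22.1 in Aza, and those of the 2 measured leukocyte markers of 4 were 3.0 to 6.3, 3.0 to 5.8 and 1.5 to 6.4. In bulk RNA, fewer cells of a type and less RNA per cell cannot be told apart.

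The 10 genes did not move as a group. In AGA, RHEB was lower on its second brightest probe set and TSC2 was slightly lower. There 4 of 5 Rag probe sets and EIF4EBP1 were higher in every same-number pair, as 9.15% of all probe sets were. Without normalization 2 of 5 Rag probe sets were, beside 1.93% of all. In Aza, TSC2 was about doubled on its bright probe set, while RRAGD was lower in every pair on 1 probe set, 221524_s_at. No member passed at a limma adjusted p of 0.05 in AGA against vehicle, where 0.009% of all probe sets did, nor in Aza against vehicle (0.009%) or Aza against AGA (0.0135%). At an unadjusted p of 0.05, 1 of 18 passed in each comparison, where 4.73%, 3.27% and 4.76% of all probe sets did. In AGA against vehicle it was a RHEB probe set. In both Aza comparisons it was bright TSC2, whose presence on the list comes from those arrays, so these counts carry no weight. Adding the replicate number as a block left the adjusted member counts at 0 (0.009%, 0% and 0.009% of all probe sets in the same order). A further fit had the block and a prior variance that follows intensity and is estimated robustly, so that outlying variances weigh less. It is called block and trend from here on. With it, 1 of 18 passed in AGA against vehicle (0.702% of all probe sets) and 2 of 18 in Aza against AGA (0.851%), namely RRAGD and TSC2. In Aza against vehicle TSC2 was the 1 probe set that passed (0.0045%). The TSC2 calls are those of a gene chosen from the Aza arrays, and nothing is read from them. The RRAGD call uses the same Aza arrays and is a description. No member's groups were free of overlap in any comparison, as 2.52%, 1.72% and 2.58% of all probe sets were. The median member difference was 0.00 in AGA, 0.00 in Aza and -0.05 for Aza against AGA, beside 0.00 for all probe sets. The labels do not say how separate the cultures were beyond calling the replicates biological, so p-values measure the spread between these replicates.

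TSC2 had a bright and a dim probe set. On the bright one, 215735_s_at, vehicle arrays 1 to 4 read 7.78, 7.42, 8.24 and 8.98. AGA arrays read 7.42, 7.07, 7.91 and 8.72, and Aza arrays 9.33, 8.29, 9.19 and 9.69. Replicate 4 was the highest and replicate 2 the lowest in each group, and the Aza range overlapped both others. Within a number, the Aza array was the highest and the AGA array the lowest all 4 times. The Aza mean was 9.12 ± 0.59, the vehicle mean 8.10 ± 0.67 and the AGA mean 7.78 ± 0.71 (SD, n = 4). Aza exceeded vehicle by 1.55, 0.87, 0.95 and 0.71 in pairs 1 to 4, a mean of 1.02 or 2.03-fold. It exceeded AGA by 1.91, 1.22, 1.28 and 0.97, a mean of 1.35 or 2.54-fold. These Aza arrays chose the gene, so neither difference is a test. The block and trend call that chose it, at 1.02, held in 12 of 19 added settings. It was lost without vehicle 1, vehicle 3, Aza 3, replicate 2 or replicate 3, on the deposited scale and with a floor of 16, where the difference was 0.94 to 1.07. AGA arrays entered that call too, since its spread and replicate effects were fitted to all 12 arrays. An even AGA difference makes that spread smaller, so the evenness given next is not independent of the choice. In AGA, TSC2 was lower than in vehicle by a similar amount in each pair (-0.36, -0.35, -0.33 and -0.26). The mean was -0.32 ± 0.44 (SE), with a limma adjusted p of 1, and 0.291 with block and trend.

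The dim TSC2 probe set, 215624_at, did not follow the bright one. Its vehicle arrays read 1.27, 1.15, 0.00 and 3.63, its AGA arrays 3.34, 3.02, 3.28 and 3.64, and its Aza arrays 0.10, 3.12, 3.14 and 3.57. Vehicle was low on 3 arrays and Aza on 1, while AGA was even. AGA exceeded vehicle by 1.81 ± 0.84 (SE; limma adjusted p = 1), and in pair 4 by 0.02. Aza differed from vehicle by -1.16, 1.96, 3.14 and -0.06 in pairs 1 to 4, a mean of 0.97, higher in 2 pairs and lower in 2. Over the 12 arrays, which share preparation and normalization, the TSC2 probe sets had a Pearson r of 0.09, and of -0.25 after each number's mean was removed. The mean Aza difference was thus of similar size on both TSC2 probe sets, and it had the same sign in every pair on the bright one alone.

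TSC1, which keeps TSC2 stable, had 1 probe set and showed no comparable difference. Its means were 7.47 ± 0.17 in vehicle, 7.33 ± 0.30 in AGA and 7.31 ± 0.23 in Aza (SD, n = 4), so the groups overlapped. AGA differed from vehicle by -0.14 ± 0.19 (SE; limma adjusted p = 1), and Aza from vehicle by -0.16.

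RHEB, the GTPase that TSC2 switches off, was read by 5 probe sets. On 213404_s_at, vehicle arrays read 9.03, 9.46, 9.63 and 9.73, AGA arrays 8.73, 8.46, 8.95 and 9.54, and Aza arrays 8.91, 9.16, 9.36 and 9.37. AGA was below vehicle in each pair, by -0.31, -1.01, -0.68 and -0.19, yet AGA 4 lay among the vehicle arrays. The mean difference was -0.54 ± 0.25 (SE; adjusted p of 1 by limma, and 0.449 with the block). With block and trend it passed, with an adjusted p of 0.0432 and an SE of 0.12. That call held in 5 of 19 added settings, and leaving out any 1 vehicle array, AGA 2, AGA 3, Aza 1, Aza 2 or Aza 3 ended it (adjusted p of 0.0586 to 0.206). Aza was also below vehicle in every pair, by 0.12 to 0.36 in size.

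The other RHEB probe sets gave a mixed picture. The brightest, 201453_x_at, differed by -0.16 in AGA (from 10.72 to 10.56), with pair 1 at 0.00. The dim 201451_x_at differed by -1.87 ± 0.68 (SE; limma unadjusted p = 0.0191, adjusted p = 1) and was higher in pair 3. It was the 1 member with an unadjusted p under 0.05 in this comparison. The remaining pair, 201452_at and 213409_s_at, differed by 0.06 and -0.07. An x in such a name marks probes that may bind related transcripts.

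**Figure D1:**
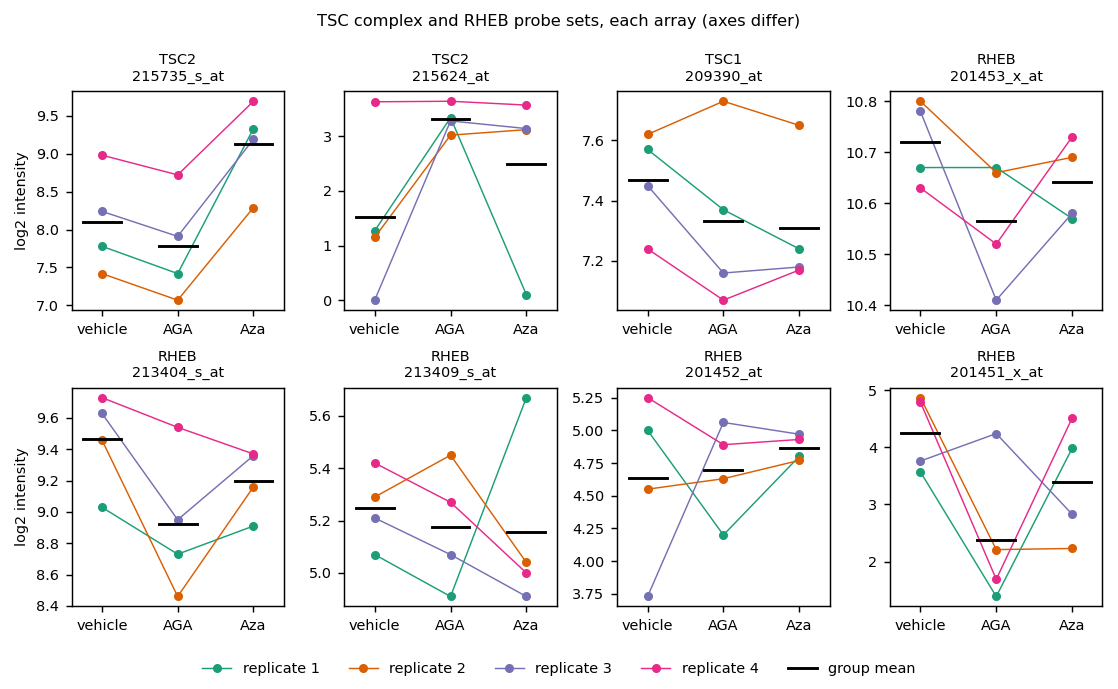
Log2 normalized intensity (vertical axes, which differ between panels) of the TSC2, TSC1 and RHEB probe sets in vehicle, AGA and Aza; points are single arrays, lines join arrays with the same replicate number and black bars are group means of 4. On TSC2 215735_s_at each line is lowest in AGA and highest in Aza, while TSC2 215624_at shows 3 low vehicle arrays and a low Aza 1 (0.10).

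The Rag GTPases were higher in AGA than in vehicle on 4 of their 5 probe sets in every pair, and lower in Aza than in AGA on all 5, where 9.15% and 8.76% of all probe sets were. On the deposited scale without normalization these counts were 2 and 2 of 5, beside 1.93% and 2.31% of all probe sets. None passed in AGA. RRAGB, which partners RagC or RagD, read 4.13, 5.08, 4.76 and 2.90 in vehicle, 5.25, 5.53, 5.68 and 4.23 in AGA, and 4.81, 4.44, 4.96 and 4.04 in Aza. AGA exceeded vehicle within each number, but AGA 4 lay inside the vehicle range. The mean difference was 0.96 ± 0.47 (SE; limma adjusted p = 1, 0.174 with block and trend).

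RRAGC read 8.59, 8.89, 8.57 and 8.45 in vehicle and 8.90, 9.03, 9.02 and 8.80 in AGA. Vehicle 2 alone lay above the lowest AGA array. The mean difference was 0.31 ± 0.15 (SE; limma adjusted p = 1, 0.14 with block and trend), and Aza differed from vehicle by 0.07. RRAGA, a bright probe set with means of 9.08 ± 0.27 in vehicle, 9.10 ± 0.23 in AGA and 8.94 ± 0.21 in Aza (SD, n = 4), differed by 0.02 in AGA and -0.14 in Aza.

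RRAGD, the other partner of RagA and RagB, had the lowest Aza values relative to AGA. On 221524_s_at, vehicle arrays read 5.26, 6.18, 5.09 and 2.33, AGA arrays 5.65, 6.91, 5.49 and 3.34, and Aza arrays 1.67, 5.31, 4.25 and 1.02. Within each number the order was AGA, vehicle, Aza, the reverse of bright TSC2. Aza 1 and Aza 4 were near the floor, and Aza 2 and Aza 3 lay inside the AGA range. Aza differed from AGA by -3.98, -1.60, -1.24 and -2.32 in pairs 1 to 4, a mean of -2.29 ± 1.14 (SE; adjusted p of 1 by limma, and 0.272 with the block). With block and trend it passed, with an adjusted p of 0.0159 and an SE of 0.43. This is a description, since the Aza arrays chose TSC2. That call held in 12 of 19 added settings and was lost without AGA 1 (0.0595) or AGA 4 (0.0544), without any 1 replicate number (0.0505 to 0.0961), and with the floor raised to 16 (0.285). With that floor the difference itself was -1.12, so its size depends on values near the floor. Against vehicle, AGA differed by 0.63 ± 1.14 (SE; limma adjusted p = 1) and Aza by -1.65.

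The second RRAGD probe set, 221523_s_at, pointed the same way for Aza against AGA, with 1 array prominent. It read 3.77, 4.55, 3.82 and 2.50 in vehicle, 4.12, 5.56, 4.43 and 3.72 in AGA, and 3.84, 4.47, 3.38 and 0.13 in Aza. Aza was below AGA in every pair (-0.28, -1.10, -1.05 and -3.59), a mean of -1.50 ± 0.85 (SE; limma adjusted p = 1, 0.24 with block and trend), and -0.81 over pairs 1 to 3. Against vehicle, Aza differed on this probe set by 0.07, -0.08, -0.44 and -2.37 in pairs 1 to 4. The mean was -0.7, and -0.15 over pairs 1 to 3. The RRAGD probe sets had a Pearson r of 0.82 over the 12 arrays, and 0.56 after each number's mean was removed.

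**Figure D2:**
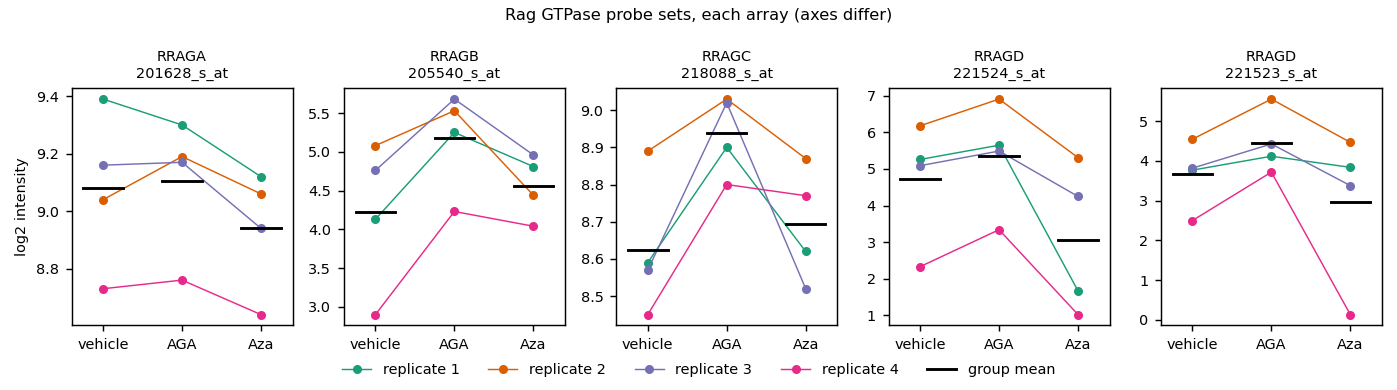
Log2 normalized intensity (vertical axes, which differ between panels) of the 5 Rag GTPase probe sets in the 3 groups; points are single arrays, lines join same-number arrays and black bars are means of 4. Every line is lower in Aza than in AGA, and replicate 4 is the lowest line in most panels.

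Replicate 4 moved with several of these values. It lay below the mean of replicates 1 to 3 for RRAGD 221524_s_at by -3.18 in vehicle, -2.68 in AGA and -2.73 in Aza. RRAGB (-1.76, -1.25 and -0.69) and EIF4EBP1 (-0.78, -1.08 and -0.65) showed the same sign, and bright TSC2 the opposite one (1.16, 1.25 and 0.75). Over pairs 1 to 3 alone, TSC2 differed by 1.12 in Aza against vehicle, RHEB 213404_s_at by -0.66 in AGA and RRAGD 221524_s_at by -2.27 in Aza against AGA. In size these are close to or above the means over all 4 pairs.

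Among the kinase and its substrates, EIF4EBP1 had the one difference with the same sign in every pair in AGA. MTOR, the catalytic subunit, had means of 5.27 ± 0.27 in vehicle, 5.25 ± 0.45 in AGA and 5.37 ± 0.31 in Aza (SD, n = 4) on 202288_at. The dim MTOR probe set 215381_at ranged from 0.00 to 4.36 within vehicle alone, and differed in AGA by 1.01 ± 1.10 (SE; limma adjusted p = 1), higher in 3 of 4 pairs. RPS6KB1, which encodes the S6 kinase, differed in AGA by -0.05 and -0.03 on its 2 probe sets and in Aza by 0.18 and -0.11. EIF4EBP1, whose product holds back cap-dependent translation until mTORC1 phosphorylates it, read 6.69, 6.88, 7.10 and 6.12 in vehicle and 7.03, 7.38, 7.94 and 6.37 in AGA. AGA was higher in each pair but the ranges overlapped. Its mean difference was 0.48 ± 0.34 (SE; limma adjusted p = 1, 0.131 with block and trend), and the Aza difference was 0.12.

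**Figure D3:**
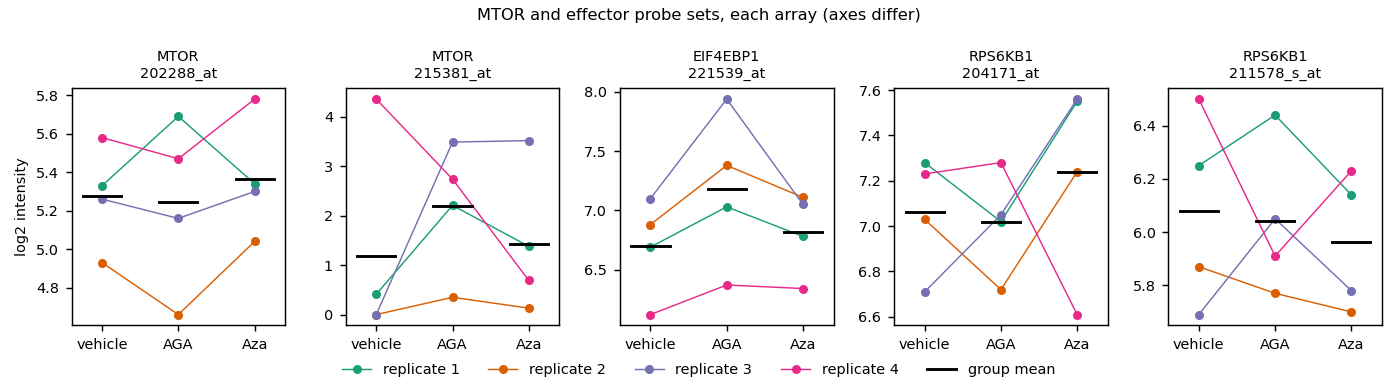
Log2 normalized intensity (vertical axes, which differ between panels) of the MTOR, RPS6KB1 and EIF4EBP1 probe sets in the 3 groups; points are single arrays, lines join same-number arrays and black bars are means of 4. EIF4EBP1 is higher in AGA than in vehicle along each line, with a mean difference of 0.48, and MTOR 202288_at stays within overlapping ranges.

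Counted over same-number pairs, 6 of 18 member probe sets were higher in AGA than in vehicle in 4 of 4 pairs (9.15% of all probe sets) and 2 were lower (9.06%). The 6 were dim TSC2, RRAGB, RRAGC, both of RRAGD, and EIF4EBP1, and the 2 were bright TSC2 and RHEB 213404_s_at. In Aza against vehicle, 2 were higher (7.61%), TSC2 and MTOR 202288_at, and 2 were lower (7.12%), RRAGD 221524_s_at and RHEB 213404_s_at. In Aza against AGA, 1 was higher (8.66%) and 6 were lower (8.76%), namely the 5 Rag probe sets and EIF4EBP1. The comparisons share arrays, so a gene that was high in AGA enters more than 1 of them. On the deposited scale without normalization, where all probe sets had a median difference of -0.24 in AGA, 3 members were higher in 4 of 4 pairs (1.93% of all) and 5 lower (20%), and 2 of the 5 Rag probe sets were higher. RRAGC then differed by 0.07. With arrays centred on their medians the members counted 7 higher (12.3% of all) and 2 lower (7.31%). In Aza against AGA the deposited scale gave 4 higher (17.6% of all) and 2 lower (2.31%), with 2 Rag probe sets lower in every pair. Median-centred arrays gave 1 higher (8.55%) and 5 lower (8.9%). Bright TSC2 was lower in AGA and higher in Aza than in AGA in 4 of 4 pairs on each of the 3 scales.

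**Figure D4:**
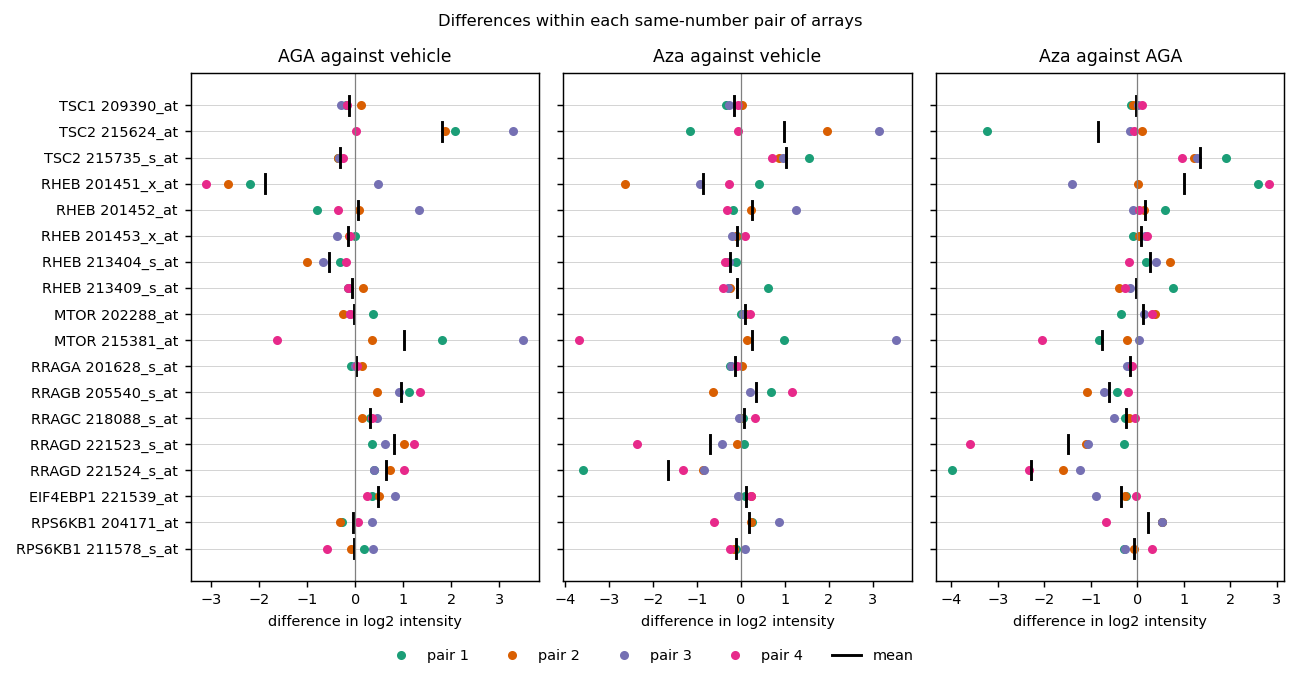
Difference in log2 normalized intensity (horizontal axes) within each same-number pair of arrays for the 18 member probe sets (rows) in 3 comparisons; points are pairs and black bars are means of 4 pairs. TSC2 215735_s_at sits right of 0 in all 4 pairs against both vehicle and AGA, and RRAGD 221524_s_at sits left of 0 in the same comparisons.

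Across the wider pathway, 52 of 74 listed genes were measured, on 96 probe sets. The list covers subunits of the mTOR complexes, the Ragulator that anchors the Rags, the GATOR and KICSTOR regulators, amino acid sensors, growth factor and energy inputs, and translation and autophagy effectors. RPTOR, RICTOR and TBC1D7 were among 20 genes with no probe set named for them here. In AGA against vehicle 0 of 96 passed at a limma adjusted p of 0.05, with 3 lower and 0 higher at an unadjusted p of 0.05, or 3.12% beside the 4.73% of all probe sets. In Aza against vehicle and in Aza against AGA 0 of 96 passed as well. At the unadjusted p, 1 was lower in the first (1.04% beside 3.27%) and 3 were higher in the second (3.12% beside 4.76%). Median differences over the 96 were -0.02, -0.01 and 0.02.

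PIK3R1, which encodes the p85alpha regulatory subunit through which receptors for insulin and other growth factors engage PI3-kinase, was lower in AGA on all 3 of its probe sets. It was singled out after its values were seen. On 212239_at, vehicle arrays read 11.29, 11.17, 11.36 and 11.88, AGA arrays 10.78, 10.82, 10.50 and 11.32, and Aza arrays 11.27, 11.14, 11.38 and 12.03. AGA was below vehicle within each number, and AGA 4 lay inside the vehicle range. With block and trend, PIK3R1 fell in AGA by 0.57, 0.50 and 0.77 on 212239_at, 212240_s_at and 212249_at (limma adjusted p = 0.00396, 0.00547 and 0.0244), and these were the 3 pathway probe sets that passed. In the limma fit without either none did (adjusted p = 1 for each), nor with the replicate block alone (0.413, 0.426 and 0.426). In Aza it differed from vehicle by 0.03, -0.01 and -0.14, and with block and trend it was above AGA by 0.60 and 0.49 on the first pair (adjusted p = 0.000987 and 0.00399). Raising the floor to 16 ended each of these calls, with the differences unchanged. That floor left 0 calls over all probe sets in both comparisons. For 212249_at, leaving out vehicle 3 (0.142), AGA 3 (0.136), replicate 2 (0.0785) or replicate 3 (0.246) ended the call as well, and for 212240_s_at leaving out replicate 4 did (0.0564).

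Few other pathway genes separated the groups. In AGA, EIF4E, the cap-binding protein that EIF4EBP1 restrains, was lower on 201437_s_at without overlap (7.14 against 7.55), by -0.42, while its other probe sets differed by -0.10 and -0.20. ULK1, the kinase that starts autophagy, was also lower without overlap (5.82 against 6.20), by -0.38. For both the limma adjusted p was 1. In Aza against AGA, RPS6, the ribosomal protein that S6 kinase phosphorylates, was higher on 209134_s_at by 0.07 (12.85 against 12.78). Its other probe sets, 200081_s_at, 201254_x_at and the dim 211690_at, had Aza means of 12.76, 13.01 and 0.94. Their AGA means were 12.7, 12.98 and 1.45. No pathway probe set with its higher mean above the median separated Aza from vehicle. The motif-binding factors TFEB, TFE3 and MITF differed in AGA by 0.32 and -0.50, -0.19 and 0.12, and -0.19, and in Aza by 0.00 and -0.25, -0.09 and 0.01, and 0.06.

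**Figure D5:**
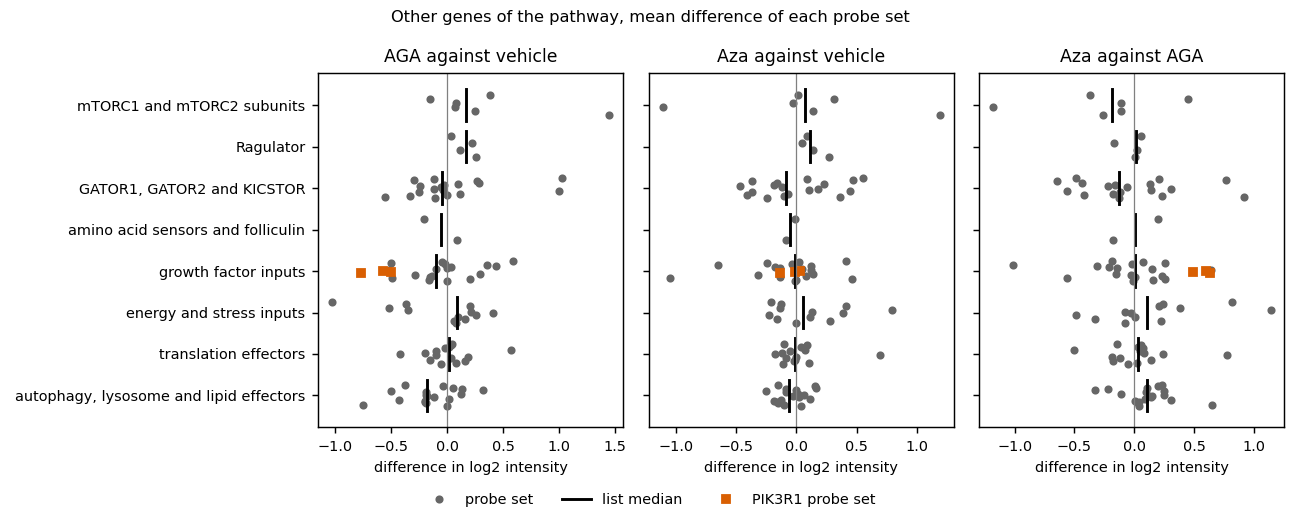
Mean difference in log2 normalized intensity (horizontal axes) of the 96 pathway probe sets, grouped by list (rows), in 3 comparisons; grey points are probe sets, black bars list medians and orange squares PIK3R1. The 3 PIK3R1 probe sets lie at -0.57, -0.50 and -0.77 in AGA against vehicle and near 0 in Aza against vehicle.

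The probe sets whose pattern was most like bright TSC2 were sought among 9792 with 1 symbol and a mean above the median, after each number's mean was removed. The closest over the 12 arrays were ZDHHC7 (Pearson r = 0.98), ZBED1 (0.96), TMEM47 (0.94), KIZ (0.94) and ASL (0.93). Without that removal their r was 0.23, 0.18, -0.30, 0.48 and 0.55, so the likeness is within numbers. Among the members, RRAGD 221524_s_at had the most opposite pattern (r = -0.95), followed by RRAGA (-0.86) and RRAGD 221523_s_at (-0.56). These values share arrays, groups and normalization and are descriptions.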

How the data were processed

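The authors deposited linear intensity values for 22277 probe sets, made with GCOS per the submitters' processing notes, with algorithm and scaling not given in the sources used here. The deposited medians differed between arrays, so whether they had been scaled stays unknown. Values below 1 were set to 1, log2 was taken, 62 control probe sets were dropped and the 12 arrays were quantile normalized. The deposited intensity was thereby turned into log2 levels, and a fold is on that scale. Group differences came from limma 3.58.1 under R 4.3.3 (linear model with moderated variance, two-sided tests), fitted jointly to the 12 arrays, with Benjamini-Hochberg adjustment over 22215 probe sets at 0.05. The scripts were checked on simulated data. Of these probe sets, 19064 had 1 gene symbol, 1043 several and 2108 none.

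Whether replicate numbers pair arrays was checked on deviations from group means. Over probe sets above the median level, same-number arrays of different groups correlated over 0.1 in 12 of 12 cases (0.368 to 0.781). Over all probe sets they did in 6 of 12 (0.0589 to 0.261). The pairing comes from the data and the numbers alone, so the fit without a block is the main one. Alternatives were another scale, floor or filter, the replicate block, an intensity trend, 2 groups only, Holm adjustment and each array left out. Every fit with the trend also estimated the prior variance robustly. Pathway genes were named where the 2 groups did not overlap and the higher mean was above the median, at most 3 per direction. Members and lists were chosen with earlier results of these data known.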

Additional observations from a re-analysis of the deposited data

Results flagged for a closer look

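Bright TSC2 (215735_s_at) was below vehicle in AGA and above it in Aza in 4 of 4 pairs each, and these differences are 1.35 apart. RRAGD 221524_s_at did the opposite, above vehicle in AGA and below it in Aza in 4 of 4 pairs each, and its differences are -2.29 apart. Without normalization this RRAGD probe set was above vehicle in AGA in 3 of 4 pairs. The other one, 221523_s_at, was below vehicle in Aza in 3 of 4 pairs. For TSC2 the fitted result for the gap is not read as a test, since the gene was chosen from the Aza arrays. For RRAGD the gap equals the comparison of Aza with AGA, with a limma adjusted p of 1, and 0.0159 with block and trend. That comparison uses the Aza arrays that chose TSC2, so for RRAGD too it is a description.

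Single arrays stood far from the other 3 of their group in 3 cases. TSC1 read 7.65 on Aza 2, where the other Aza arrays read 7.17 to 7.24. Dim TSC2 (215624_at) read 0.10 on Aza 1, where the others read 3.12 to 3.57. Dim MTOR (215381_at) read 4.36 on vehicle 4, where the others read 0.00 to 0.41. Chance flags about 1 in 20 groups, and 54 were looked at.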

How the results depend on the processing

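With the replicate block and trend, member calls moved from 0 to 1 in AGA against vehicle, to 1 in Aza against vehicle and to 2 in Aza against AGA, and pathway calls from 0 to 3, 0 and 2. The added settings for these calls were chosen after seeing the data. The replicate block alone changed no member or pathway call. Of 1275 member differences under the alternatives, 1262 kept their side of the threshold and moved by less than the spread. Of the rest, 9 moved further and 4 newly passed. Changes of sign were not counted, and some small differences changed sign. In AGA against vehicle RRAGA went from 0.02 to -0.21 on the deposited scale.

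Over all probe sets the limma counts were 2, 2 and 3 in AGA against vehicle, Aza against vehicle and Aza against AGA. Each was 0 with a floor of 16, with dim probe sets left out, and with the trend without the block. With block and trend they were 156, 1 and 189, and 0 each when that fit had a floor of 16. With only the 2 groups compared, AGA and Aza against vehicle gave 4 each. Aza against vehicle gave 0 with median-centred arrays, 0 with the replicate block and 1 with Holm adjustment. Leaving out 1 array or 1 replicate number gave 1 to 7, 0 to 7 and 2 to 8, the highest without replicate 4, Aza 1 and replicate 4. The cause was not tested. Detection calls were not used here, so 7 of the 18 member probe sets, below the median level, have levels whose distance from background is unknown.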
